A study of Arabidopsis with 8 samples.

Results

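Of the 22746 Arabidopsis probe sets measured on the array, 77 (0.339%) had a signal that stood high in well-watered nNOS transgenic leaves and lower in each of the other conditions. They were chosen from the group means of the log2 signal. The mean in nNOS control had to be at least 1 above that in WT control, the mean in nNOS drought at least 1 below that in nNOS control, and the mean in WT drought no lower than 0.8 below that in WT control. A difference of 1 on the log2 scale is 2-fold. The same limits took in 85 probe sets, of which 8 were left out because their genes (cold, defence, RING finger and auxin response genes among them) were set aside by name. Taken alone, the 3 limits were met by 0.972%, 1.16% and 99.3% of all probe sets. These differences are what selected the members, so they are given below as descriptions and carry no test.

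The data are leaf transcript levels from 8 ATH1 oligonucleotide arrays, which fall into 4 groups of 2. The nNOS drought group and the nNOS control group were Col-0 plants that carried the neuronal nitric oxide synthase (nNOS) gene behind the CaMV 35S promoter, a viral promoter active in most plant tissues. The WT drought group and the WT control group were untransformed Col-0. Plants were 2 weeks old when water was withheld from the drought groups, and control plants stayed well watered. The sample labels give 14 d without water, whereas the methods text names a shorter time. Leaves of at least 20 seedlings went into a sample. The nNOS arrays carried pooled RNA of 2 transgenic lines by the design text, although the extraction label names a single line, so the lines cannot be told apart here. The methods describe 2 replicate leaf samples per group and do not say whether these came from separate plantings, so tests here rest on how far such samples lie apart. The array has no probe set named for the transgene, and the genotype labels were not checked on it.

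Nitric oxide is a small reactive gas that plants use as a signal, in part by modifying cysteine residues of proteins. It is known to interact with abscisic acid, salicylic acid, jasmonic acid and auxin, the hormones that balance growth against responses to drought and pathogens. Among the 77 probe sets, 43 could be grouped by an annotated role or family, or by organelle genome. There were 6 SAUR genes of the auxin response, 11 genes of defence and signalling, 6 transcription factors, 4 RING or F-box genes of the ubiquitin system, 8 probe sets for organelle genomes, 4 genes of translation, splicing and protein import, 2 membrane or stress proteins and 2 genes of secondary metabolism and the cell wall. The other 34 were uncharacterised or fitted none of these groups. In the study's annotation, the organelle members ATMG00690, ATMG01000, ATMG01220 and orf118 are of unknown function. That annotation gives no functional category to AT5G52760, AT1G80450, AT1G78410 and AT5G66330, which were placed with defence and signalling here.

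The arrays were checked before the members were described. The median signal of all probe sets lay between 4.92 and 5.09 on every array. RCA, which encodes the Rubisco activase of green leaf cells, averaged 13.09 in nNOS drought, 12.96 in nNOS control, 13.06 in WT drought and 12.87 in WT control. The root gene EXPA7 averaged 3.18, 3.79, 3.04 and 3.57 in the same order, and the root gene PYK10 lay between 7.44 and 7.80 in the 4 groups. The other leaf markers sought, and the markers of anther and flower, had no probe set named for them here. The GAPDH control probe sets at the 3′ end of the transcript exceeded those at its 5′ end, a gap that widens as RNA is degraded, by 0.64 and 0.87 on the log2 scale in nNOS drought, 1.06 and 1.45 in nNOS control, 0.64 and 0.78 in WT drought, and 1.32 and 1.02 in WT control. The GAPDH gap was wider in the control groups than in the drought groups of both genotypes, with no overlap. The actin control probe sets did not share this. Their gap was 3.07 and 2.91 in nNOS drought and 2.97 and 2.96 in nNOS control. In WT it was 3.63 and 3.58 in drought, and 3.03 and 3.41 in control. It overlapped between the nNOS groups and was wider in WT drought than in WT control. The part of either gap in the members' signal was not tested. In whole leaves, fewer cells of a type and less RNA per cell cannot be told apart.

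The arrays of nNOS control stood apart on probe sets that measure no plant mRNA. The 24 poly-A control probe sets detect bacterial transcripts that are added to a sample before labelling. Their mean log2 signal was 6.50 and 6.65 in nNOS drought, 8.98 and 9.40 in nNOS control, 6.11 and 6.04 in WT drought, and 6.88 and 6.88 in WT control. The 18 hybridization control probe sets averaged 9.07 and 9.13 in nNOS drought, 9.93 and 10.32 in nNOS control, 8.82 and 8.88 in WT drought, and 9.19 and 9.16 in WT control. In both sets the 2 nNOS control arrays were the highest of the 8. The control probe set for 25S ribosomal RNA gave 10.96 and 11.22 in nNOS drought, 12.11 and 12.18 in nNOS control, 10.60 and 10.74 in WT drought, and 11.02 and 11.06 in WT control. The median of the 77 members was also highest in nNOS control, which follows from the choice of members, and lowest in WT drought. It was 6.72 and 6.76 in nNOS drought, 7.70 and 8.09 in nNOS control, 6.28 and 6.39 in WT drought, and 6.69 and 6.69 in WT control. The part of these array differences in the members' signal was not tested.

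**Figure D1:**
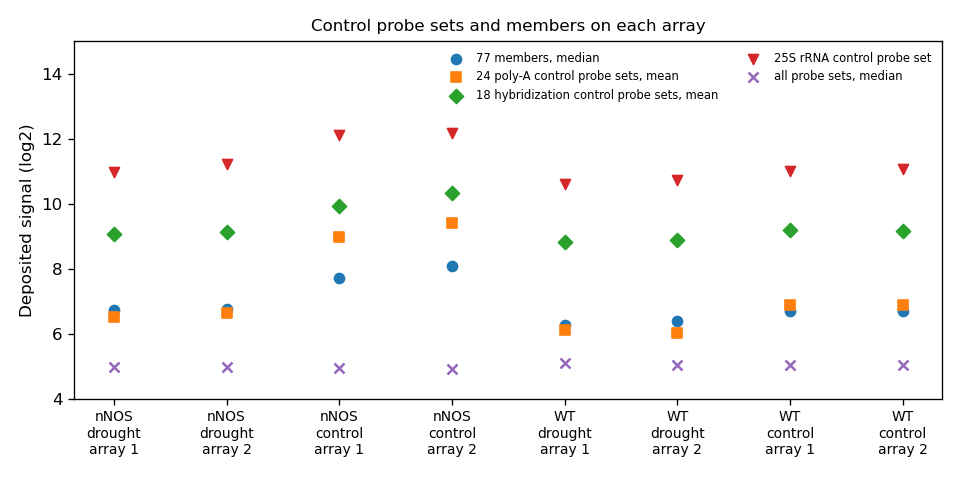
Deposited log2 signal on each of the 8 arrays (x axis, 2 arrays per group) of the median member, of the mean poly-A, mean hybridization and 25S rRNA controls, and of the median of all probe sets. The nNOS control arrays are the highest for the members (7.70 and 8.09), which follows from their choice. They are also the highest for all 3 kinds of control. The median of all probe sets stays between 4.92 and 5.09.

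The signal of the 77 members in nNOS control was 2.00 to 3.55 times that in WT control. As log2 differences of group means, nNOS control minus WT control had a median of 1.21 (range 1.00 to 1.83), beside 0.01 over all probe sets. Drought in the nNOS plants went with a median difference of -1.21 (range -2.29 to -1.0025), beside -0.02 over all probe sets. Drought in WT went with a median of -0.33 (range -0.77 to 0.63), beside -0.04 over all. In each of the 77, both nNOS control arrays lay above all 6 other arrays, which held for 17.2% of all probe sets. This follows largely from the choice of members, so nothing is read from it. The gap between the lower nNOS control array and the highest of the other arrays had a median of 0.90 and ranged from 0.28 to 1.64.

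The mean in nNOS drought minus the mean in WT control is the sum of the first 2 differences used in the choice, one of at least 1 and one of at most -1, so that values near 0 follow largely from the choice. It had a median of -0.01 and ranged from -0.78 to 0.74. Both nNOS drought arrays were above both WT control arrays for 19 members, both were below them for 21, and the 2 groups overlapped for 37. The shares over all probe sets were not counted for these positions, so nothing is read from them.

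**Figure D2:**
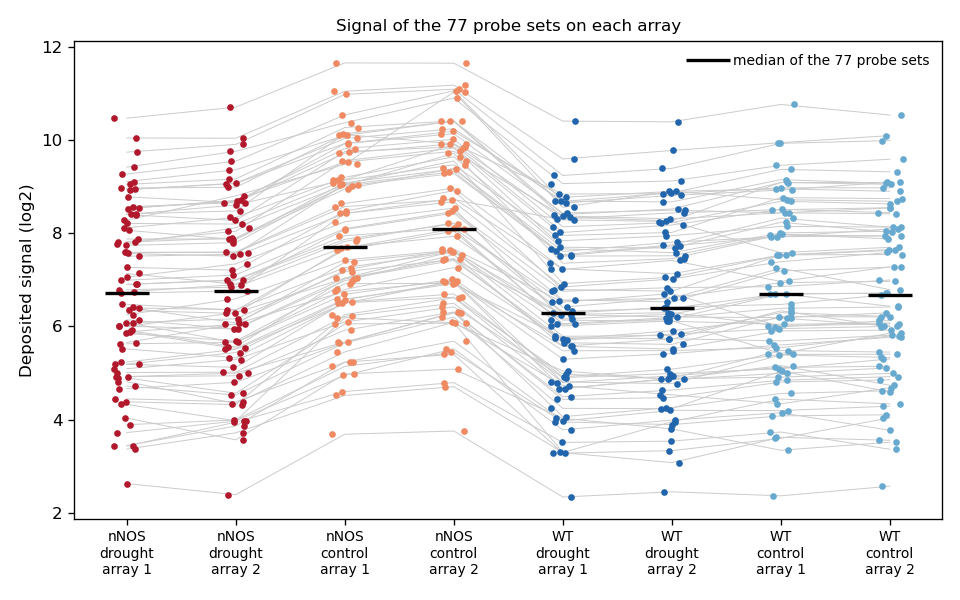
Deposited log2 signal (y axis) of the 77 probe sets on each of the 8 arrays (x axis). Each point is a probe set, each grey line joins a probe set across arrays, and the bars are the medians on each array, which are highest in nNOS control at 7.70 and 8.09.

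The replicate arrays of nNOS control differed for these members. Replicate 2 was above replicate 1 for 74 of the 77, against 47.5% of all probe sets, and by a median of 0.31. The median SD between replicates of the members was 0.11 in nNOS drought, 0.22 in nNOS control, 0.08 in WT drought and 0.06 in WT control. When the same limits were applied to the replicate 1 arrays alone, 50 probe sets met them, 37 of which were members. On the replicate 2 arrays alone, 146 probe sets met them, 71 of which were members. The 34 probe sets found on both made up 68.0% of the first list and 23.3% of the second.

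Members lay close to the limits. For nNOS control minus WT control, AT5G15190 (1.00), J11 (1.00) and AT5G57785 (1.01) were just inside. AT1G35560, the probe set of AT3G52105/AT3G52100 and LTP2, each at 1.00 when rounded and 0.9992, 0.9979 and 0.9959 in full, were just outside. Within 0.1 of this limit stood 23 members inside and 18 probe sets outside. For nNOS drought minus nNOS control, AT3G63220, AT5G66330 and MKK7 (-1.0025, -1.0063 and -1.0095) were just inside, and nad4, AT5G66590 and nad6 (-0.9964, -0.9873 and -0.9767) were just outside, with 23 on either side within 0.1. For WT drought minus WT control, AT2G25735, TLP-3 and SAUR23 (each -0.77) were just inside and RALF23, RUP1 and AT2G44380 (-0.81, -0.81 and -0.82) just outside, with 4 inside and 6 outside within 0.1.

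The 6 SAUR members (small auxin up RNA) belong to a family of small proteins whose transcripts appear within minutes of an auxin pulse. Several of them promote cell expansion by holding back phosphatases that switch off the plasma membrane proton pump. SAUR34 gave 3.44 and 3.86 in nNOS drought, 5.23 and 5.40 in nNOS control, 3.28 and 3.33 in WT drought, and 3.60 and 4.04 in WT control. SAUR41 gave 6.25 and 6.60 in nNOS drought, 7.43 and 7.64 in nNOS control, 6.14 and 6.11 in WT drought, and 6.05 and 6.08 in WT control. Of the 6, these stood furthest above WT when well watered, with their nNOS control arrays clear of all others. SAUR23, of the subfamily best known for driving hypocotyl and leaf growth, gave 8.42 and 8.48 in nNOS drought, 10.14 and 10.41 in nNOS control, 8.35 and 8.27 in WT drought, and 9.09 and 9.05 in WT control. SAUR63 gave 6.72 and 6.76 in nNOS drought, 8.43 and 8.68 in nNOS control, 6.85 and 7.02 in WT drought, and 7.39 and 7.59 in WT control. For both genes the WT arrays did not overlap between drought and control, and the WT drought minus WT control differences were -0.77 and -0.56. The probe set for SAUR23 is of the type that can also catch near-identical family members, so its signal may not be of this gene alone.

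SAUR68 and SAUR56 differed little between the WT groups. SAUR68 gave 6.08 and 6.17 in nNOS drought, 7.17 and 7.44 in nNOS control, 6.26 and 6.20 in WT drought, and 6.19 and 6.29 in WT control. SAUR56 gave 4.45 and 4.38 in nNOS drought, 5.23 and 5.69 in nNOS control, 3.97 and 4.20 in WT drought, and 4.19 and 4.29 in WT control. Their WT drought minus WT control differences were -0.01 and -0.16, so the 6 SAUR members ranged from -0.77 to 0.06 in this comparison while their nNOS drought minus nNOS control differences ranged from -1.82 to -1.04. SAUR63 and SAUR68 lie on chromosome 1 with 7 genes between them. How many SAUR genes the array measures was not counted, because the annotation used here does not name them all.

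**Figure D3:**
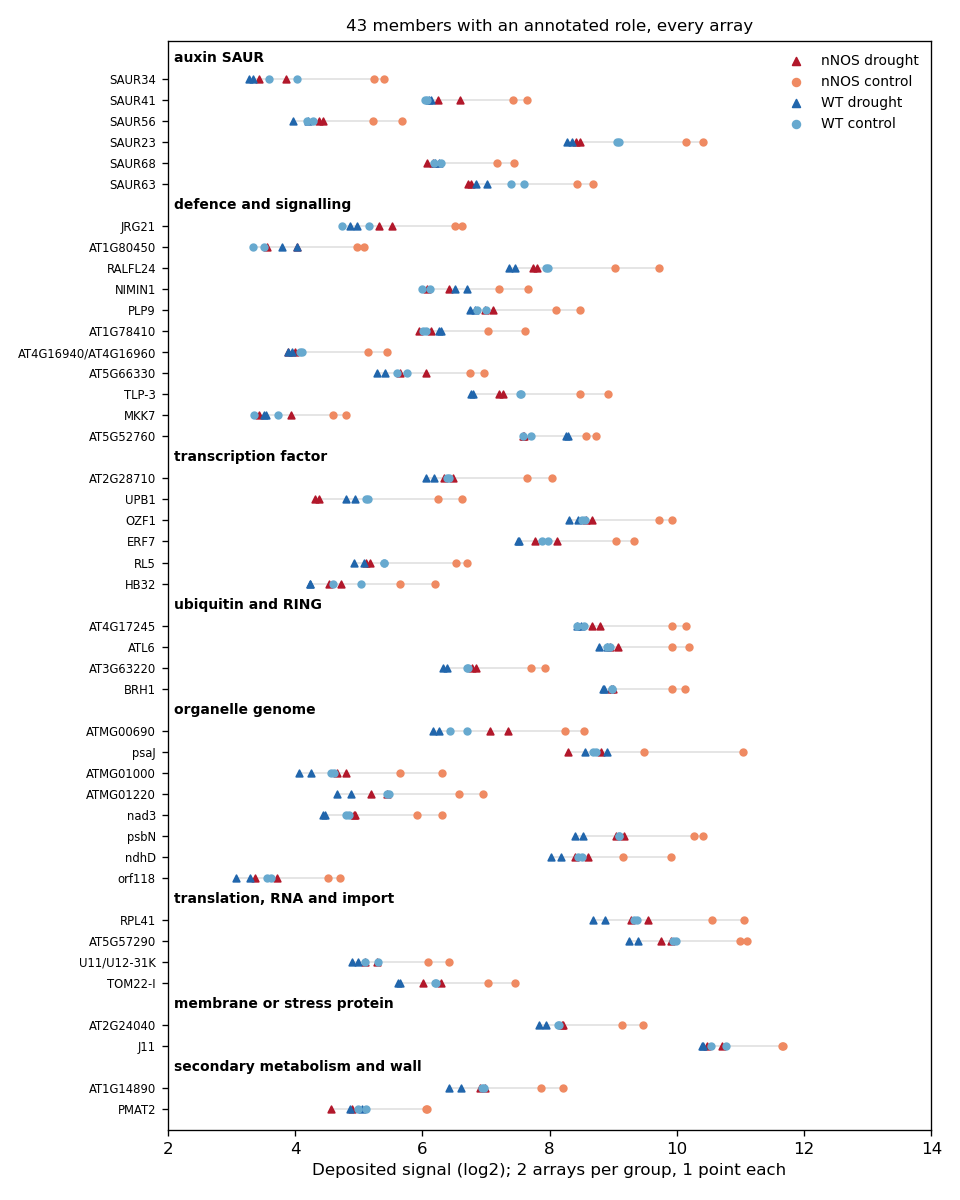
Deposited log2 signal (x axis) of the 43 grouped members (rows, by role, family or organelle genome), with 1 point for each of the 8 arrays. Triangles are drought arrays and circles control arrays. In every row the 2 nNOS control points lie to the right of the other 6, which follows largely from the choice of members.

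Among the 11 members of defence and signalling, JRG21 had the largest nNOS control minus WT control difference, at 1.62. It encodes an oxygenase of the family that hydroxylates jasmonic acid and so lowers the active hormone. JRG21 gave 5.52 and 5.33 in nNOS drought, 6.51 and 6.63 in nNOS control, 4.98 and 4.87 in WT drought, and 5.16 and 4.74 in WT control. Its nNOS drought arrays lay below nNOS control and above both WT groups, which overlapped, and the nNOS drought minus WT drought difference was 0.50. RALFL24, a gene of the RALF family of secreted peptides that act through receptor kinases at the cell wall, gave 7.74 and 7.80 in nNOS drought, 9.04 and 9.72 in nNOS control, 7.36 and 7.46 in WT drought, and 7.97 and 7.94 in WT control. MKK7, a MAP kinase kinase known from auxin transport and systemic resistance, gave 3.44 and 3.94 in nNOS drought, 4.60 and 4.80 in nNOS control, 3.51 and 3.54 in WT drought, and 3.73 and 3.36 in WT control. Apart from nNOS control, the MKK7 groups overlapped and were dim.

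In several defence members the WT drought mean exceeded the WT control mean, the opposite sign to their drought difference in the nNOS plants. NIMIN1, which binds the salicylic acid co-activator NPR1 and restrains its targets, gave 6.42 and 6.08 in nNOS drought, 7.21 and 7.66 in nNOS control, 6.52 and 6.71 in WT drought, and 5.99 and 6.13 in WT control. AT5G52760, annotated as a heavy-metal-associated domain protein, gave 7.59 and 7.59 in nNOS drought, 8.58 and 8.73 in nNOS control, 8.29 and 8.25 in WT drought, and 7.59 and 7.70 in WT control. For both genes the WT drought arrays lay above both WT control arrays, by mean differences of 0.55 and 0.63, while the nNOS drought minus nNOS control differences were -1.19 and -1.06. The VQ motif gene AT1G80450, of a family whose proteins partner WRKY factors, gave 4.03 and 3.57 in nNOS drought, 4.98 and 5.08 in nNOS control, 4.03 and 3.80 in WT drought, and 3.34 and 3.51 in WT control. The other VQ motif member, AT1G78410, gave 6.14 and 5.95 in nNOS drought, 7.04 and 7.62 in nNOS control, 6.26 and 6.30 in WT drought, and 6.01 and 6.06 in WT control. Their WT drought minus WT control differences were 0.49 and 0.24, and the nNOS drought arrays overlapped those of WT drought for AT1G80450 and those of WT control for AT1G78410. Over all 77 members the WT drought mean was above the WT control mean for 9, and below it for 68 (56.3% of all probe sets were below). It was above by more than 0.4 for 4 members, which were AT5G52760, NIMIN1, AT1G80450 and the probe set shared by AT2G32190 and AT2G32210.

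The remaining defence members did not show that sign in WT. TLP-3, a thaumatin-like protein of the kind found among pathogenesis-related proteins, gave 7.27 and 7.21 in nNOS drought, 8.48 and 8.92 in nNOS control, 6.79 and 6.76 in WT drought, and 7.54 and 7.55 in WT control. PLP9, a patatin-like protein, gave 6.99 and 7.11 in nNOS drought, 8.10 and 8.47 in nNOS control, 6.76 and 6.84 in WT drought, and 6.86 and 7.00 in WT control. TLP-3 was thus lower in WT drought than in WT control by 0.77, the 2 groups well apart, whereas PLP9 differed by -0.13 and its groups nearly touched. The leucine-rich repeat gene AT5G66330 and the probe set shared by the immune receptor genes AT4G16940 and AT4G16960 also had both nNOS control arrays above the rest, as the plot of members by role shows.

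Of the 6 transcription factors, AT2G28710 and UPB1 stood furthest above WT when well watered. UPB1 is a bHLH factor that represses peroxidase genes and so sets the balance of reactive oxygen species in root tips. It gave 4.38 and 4.32 in nNOS drought, 6.25 and 6.62 in nNOS control, 4.80 and 4.94 in WT drought, and 5.12 and 5.15 in WT control. UPB1 was therefore highest in nNOS control and lowest in nNOS drought, below both WT groups with no overlap, and its nNOS drought minus nNOS control difference of -2.08 was the second most negative of the 77. ERF7, a repressor of the ethylene response factor family that dampens abscisic acid responses, gave 7.78 and 8.12 in nNOS drought, 9.05 and 9.33 in nNOS control, 7.51 and 7.52 in WT drought, and 7.98 and 7.88 in WT control. OZF1, a CCCH zinc finger protein of oxidative stress tolerance, gave 8.57 and 8.66 in nNOS drought, 9.72 and 9.93 in nNOS control, 8.31 and 8.44 in WT drought, and 8.51 and 8.55 in WT control. The 6 arrays outside nNOS control spanned 0.61 for ERF7 and 0.35 for OZF1.

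The other 3 factors were of the MYB-related, homeobox and zinc finger families. AT2G28710, a C2H2 zinc finger gene, gave 6.48 and 6.35 in nNOS drought, 7.65 and 8.05 in nNOS control, 6.06 and 6.19 in WT drought, and 6.39 and 6.42 in WT control. RL5, a RADIALIS-like gene, gave 5.19 and 5.12 in nNOS drought, 6.52 and 6.70 in nNOS control, 4.92 and 5.08 in WT drought, and 5.40 and 5.40 in WT control. The zinc finger homeobox gene HB32 gave 4.72 and 4.53 in nNOS drought, 5.65 and 6.20 in nNOS control, 4.24 and 4.23 in WT drought, and 5.04 and 4.60 in WT control. For all 6 factors the nNOS drought minus nNOS control difference lay between -2.08 and -1.21, and the WT drought minus WT control difference between -0.58 and -0.16.

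The ubiquitin system was represented by 3 RING finger genes and an F-box gene. ATL6, a membrane RING-H2 ubiquitin ligase of the carbon and nitrogen response and of defence, gave 8.95 and 9.07 in nNOS drought, 9.93 and 10.20 in nNOS control, 8.77 and 8.90 in WT drought, and 8.96 and 8.91 in WT control. BRH1, a RING-H2 gene that brassinosteroids repress, gave 8.97 and 8.99 in nNOS drought, 10.12 and 9.92 in nNOS control, 8.85 and 8.86 in WT drought, and 8.98 and 8.98 in WT control. Outside nNOS control, the 6 arrays spanned 0.30 for ATL6 and 0.15 for BRH1. AT4G17245, another RING finger gene, gave 8.79 and 8.66 in nNOS drought, 9.93 and 10.14 in nNOS control, 8.44 and 8.50 in WT drought, and 8.44 and 8.55 in WT control, a nNOS control minus WT control difference of 1.54. The kelch F-box gene AT3G63220 gave 6.79 and 6.85 in nNOS drought, 7.70 and 7.94 in nNOS control, 6.32 and 6.39 in WT drought, and 6.71 and 6.71 in WT control. On chromosome 3 it lies with 2 genes between it and PLP9.

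The 8 organelle probe sets included the member with the largest difference of all. ATMG00690, a mitochondrial open reading frame, gave 7.06 and 7.35 in nNOS drought, 8.25 and 8.54 in nNOS control, 6.16 and 6.27 in WT drought, and 6.71 and 6.43 in WT control. Here the nNOS drought arrays also stayed above both WT groups, and the nNOS drought minus WT drought difference of 0.99 was the largest of the 77. The probe set of nad3, a subunit of respiratory complex I, gave 4.92 and 4.94 in nNOS drought, 5.92 and 6.31 in nNOS control, 4.43 and 4.47 in WT drought, and 4.81 and 4.85 in WT control. It matches both the mitochondrial gene and its copy in the nuclear genome, as does that of orf118. ATMG01220 gave 5.19 and 5.44 in nNOS drought, 6.57 and 6.96 in nNOS control, 4.66 and 4.89 in WT drought, and 5.48 and 5.45 in WT control. In each of these 3, the WT drought arrays were the lowest of the 8.

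From the plastid genome came psaJ and psbN, of photosystems I and II, and ndhD, of the NDH complex that carries electrons around photosystem I. The psaJ probe set gave 8.28 and 8.81 in nNOS drought, 9.48 and 11.04 in nNOS control, 8.56 and 8.90 in WT drought, and 8.72 and 8.69 in WT control. Its 2 nNOS control arrays were 1.56 apart, the widest of any member, and replicate 1 alone stood 0.77 above the WT control mean. The psbN probe set gave 9.05 and 9.17 in nNOS drought, 10.27 and 10.42 in nNOS control, 8.41 and 8.52 in WT drought, and 9.09 and 9.09 in WT control. The ndhD probe set gave 8.41 and 8.61 in nNOS drought, 9.15 and 9.91 in nNOS control, 8.02 and 8.18 in WT drought, and 8.52 and 8.44 in WT control. Organelle transcripts mostly lack the poly-A tail on which labelling starts. Whether labelling had a part in the signal of these members was not tested.

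As a group the named plastid genes did not share the sign of these 3 members. For nNOS control against WT control, limma was applied to 69 probe sets of the plastid genome, the 3 members included. With an adjusted p no greater than 0.05 it called 14 higher and 34 lower, and the median difference of the 69 was -0.33. The 3 members are among the higher by their choice. Of 12 genes that the platform annotation places in the mitochondrial genome, limma called 7 higher and 0 lower in that comparison, with a median of 0.44. No member could be among the 12. That annotation places nad3 and orf118 at their nuclear copies, and the ATMG members are named by the study's columns alone. Among all probe sets 13.0% were called higher and 17.9% lower. The largest differences among the 12 were 0.81 for nad1, 0.75 for cox2 and 0.75 for ccb452. Outside them, nad4 and nad6, just outside the limits, stood higher at 1.45 and 1.05, and the probe set of nad6 also matches a nuclear copy. By contrast nad2, named like nad4 by the study's annotation columns alone, stood at -0.09.

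In translation, splicing and import, RPL41 had the largest difference, at 1.46. Its probe set is shared by 5 genes for the small basic protein L41 of the large ribosomal subunit. RPL41 gave 9.27 and 9.55 in nNOS drought, 10.55 and 11.06 in nNOS control, 8.69 and 8.87 in WT drought, and 9.38 and 9.32 in WT control. AT5G57290, for the acidic stalk protein P3, gave 9.75 and 9.91 in nNOS drought, 10.99 and 11.10 in nNOS control, 9.24 and 9.40 in WT drought, and 9.93 and 9.99 in WT control. TOM22-I, a receptor of the mitochondrial import pore, gave 6.01 and 6.30 in nNOS drought, 7.04 and 7.46 in nNOS control, 5.65 and 5.62 in WT drought, and 6.21 and 6.21 in WT control. All 3 had WT drought arrays below every other array, with WT drought minus WT control differences of -0.57, -0.64 and -0.58. U11/U12-31K, a protein of the minor spliceosome, differed less in WT, by -0.25.

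J11, a plastid DnaJ co-chaperone, was the brightest member. It gave 10.48 and 10.71 in nNOS drought, 11.66 and 11.66 in nNOS control, 10.41 and 10.40 in WT drought, and 10.77 and 10.54 in WT control. AT2G24040, of the small hydrophobic proteins induced by cold and salt, gave 8.21 and 8.20 in nNOS drought, 9.15 and 9.47 in nNOS control, 7.84 and 7.95 in WT drought, and 8.15 and 8.14 in WT control. The WT drought minus WT control difference of both was -0.25, and in neither did the WT arrays overlap. PMAT2, a malonyltransferase of phenolic glucosides, gave 4.90 and 4.57 in nNOS drought, 6.06 and 6.07 in nNOS control, 5.05 and 4.86 in WT drought, and 4.99 and 5.11 in WT control. AT1G14890, a pectin methylesterase inhibitor of the cell wall, gave 6.90 and 6.99 in nNOS drought, 7.87 and 8.21 in nNOS control, 6.42 and 6.62 in WT drought, and 6.94 and 6.97 in WT control.

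Among the 34 members of other or unknown function, AT2G41800 had the most negative nNOS drought minus nNOS control difference of all 77, at -2.29. Its signal was 3.72 and 3.97 in nNOS drought, 6.19 and 6.08 in nNOS control, 3.29 and 3.95 in WT drought, and 4.44 and 4.34 in WT control. AT2G21180 gave 7.51 and 7.55 in nNOS drought, 9.06 and 9.56 in nNOS control, 6.92 and 7.06 in WT drought, and 7.53 and 7.63 in WT control. AT3G18250 gave 7.82 and 8.05 in nNOS drought, 9.56 and 9.84 in nNOS control, 7.70 and 7.69 in WT drought, and 8.24 and 8.03 in WT control. These 3 had nNOS control minus WT control differences of 1.75, 1.73 and 1.57, among the 10 largest of members that name 1 gene. The probe set shared by AT2G32190 and AT2G32210 gave 6.40 and 6.36 in nNOS drought, 7.26 and 7.60 in nNOS control, 6.01 and 6.12 in WT drought, and 5.42 and 5.86 in WT control. It differed from most members in that WT drought was above WT control, by 0.43.

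The rest of these 34 had nNOS control minus WT control differences between 1.00 and 1.47. They were AT5G50335, AT5G65520, AT4G28180, MEE60, AT5G49560, AT5G53740, AT5G26731, AT5G07960, AT1G33055, AT3G13910, AT3G04640, AT2G21195, AT4G28703, AT3G52480, AT4G33960, AT1G03820, AT3G57785, AT2G37750, AT5G21020, AT4G29735, AT3G25870, AT2G25735, AT3G14430, AT5G44170, AT4G15140, AT2G35750, AT5G57785, AT5G15190, the transposable element locus AT2G06390 and a probe set named 2A6 in the platform annotation but assigned to a neighbouring retrotransposon locus elsewhere. AT2G06390 was the dimmest member, at 2.63 and 2.39 in nNOS drought, 3.69 and 3.76 in nNOS control, 2.34 and 2.45 in WT drought, and 2.36 and 2.57 in WT control. AT2G21195 and AT2G21180 lie on chromosome 2 with 2 genes between them.

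The 2 comparisons below are bound to the choice of members. The WT drought minus WT control difference had a limit in the rule, and nNOS drought minus WT drought follows by arithmetic from the 3 differences that the rule used. They are therefore counted by limma beside all probe sets, and nothing is read from the counts. In nNOS drought against WT drought, 15 members (19.5%) were called higher and 2 (2.60%) lower, with an adjusted p no greater than 0.05, beside 3.68% and 7.00% of all probe sets. The median difference was 0.30 (range -0.68 to 0.99), beside 0.04 over all, and the mean was higher in nNOS drought for 65 members, as it was for 55.4% of all probe sets. Both nNOS drought arrays lay above both WT drought arrays for 59 members, which held for 36.2% of all probe sets. No member reached a difference of 1. Of all probe sets, 0.0176% were both called higher and at a difference of at least 1. The 2 lower members were AT5G52760 and UPB1, at -0.68 and -0.52.

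In WT drought against WT control, 1 member (1.30%) was called higher and 19 (24.7%) lower at the same adjusted p, beside 5.97% and 4.92% of all probe sets. The higher member was AT5G52760. Both WT drought arrays were below both WT control arrays for 59 members, which held for 35.6% of all. These counts varied when a single array was left out, and so did the counts over all probe sets. In both comparisons the larger count of members fell without any single array of nNOS drought or WT. It rose without either nNOS control array, and the same count over all probe sets moved likewise. With an array left out a group rests on 1 array, so those counts are not given. In a fit without both nNOS control arrays, added after seeing the data, 30 members were higher in nNOS drought than in WT drought. This stands beside 7.71% of all probe sets. The lower call of AT5G52760 was lost without nNOS drought replicate 2 or either WT drought array, and that of UPB1 without any array of nNOS drought or WT and under each other normalization. Without both nNOS control arrays, 35 members were lower in WT drought than in WT control, beside 8.62% of all probe sets. The higher call of AT5G52760 was lost without either WT drought array or WT control replicate 1.

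**Figure D4:**
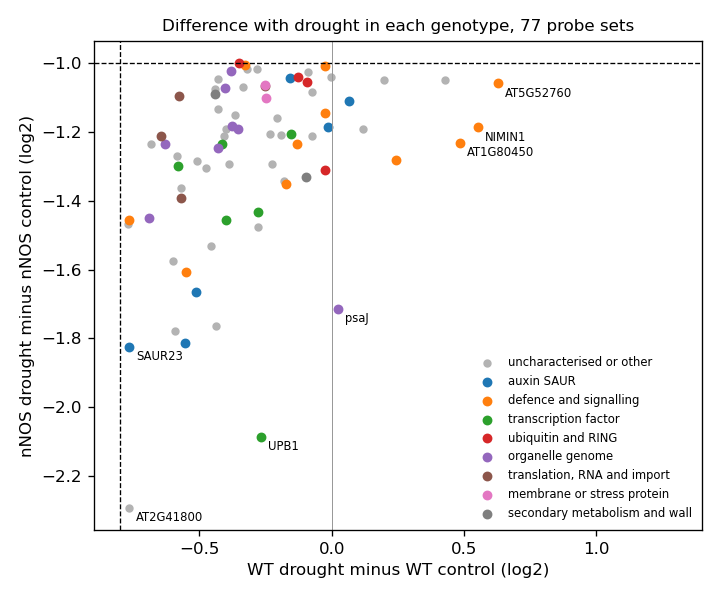
Log2 differences of group means for the 77 members, nNOS drought minus nNOS control (y axis) and WT drought minus WT control (x axis), with 1 point per probe set coloured by role. Dashed lines are the limits of the rule at -1 and -0.8. AT5G52760, NIMIN1 and AT1G80450 lie furthest right, at 0.63, 0.55 and 0.49, and AT2G41800 lies lowest, at -2.29.

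Other genes related to members are given for nNOS control against WT control by the same limma fit and adjusted p, as far as the platform annotation names them. Genes named by the study's annotation columns alone are not counted, because those columns cover only probe sets that the study called. Of 11 RALF genes, RALFL24 included, 7 were called higher and 0 lower, with a median difference of 0.43. Of these, RALFL32, RALFL33 and RALFL26 had the largest differences after RALFL24, at 0.77, 0.66 and 0.45. Among the 7, RALFL26, RALFL28 and RALFL18 were dim. Their means were 3.74, 3.09 and 2.90 in nNOS control, and 3.29, 2.65 and 2.51 in WT control. RALF23, named by the study's columns and left out by the WT limit, stood at 1.28. Of 6 ATL or RING-H2 genes, BRH1 included, 2 were called higher and 0 lower, and the other higher gene of the 6 was ATL8, at 0.78. The member ATL6 is named by the study's columns and is not among the 6. Of 3 genes for jasmonate oxygenases related to JRG21, none of which is a member, 2 were called higher, AT5G05600 by 0.65 and AT2G38240 by 0.58. These counts stand beside the 13.0% of all probe sets called higher and the 17.9% called lower in that comparison. RALFL24 and BRH1 are higher in it by the choice of members, so their calls within these counts were fixed in advance.

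Gene length, which the rule did not use, differed between members and other genes. For 69 members (89.6%) the gene model of RefSeq (TAIR10.1 assembly) gave a length, introns included, with a median of 1040 bp. The other 13386 probe sets with a length had a median of 2121 bp. Of the members, 55 (79.7%) were under 1500 bp, beside 27.8% of the others. The members' median was 1062 bp with organelle genes left out, and other probe sets within the members' range of the mean signal over all 8 arrays had a median of 2237 bp.

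The difference between well-watered nNOS plants and WT also varied with length among genes that are not members. Of the 1743 other probe sets whose genes are under 1000 bp, 2.01% had a nNOS control minus WT control difference of at least 1, beside 0.0564% of the 3546 whose genes have 3000 bp or more. Under the other normalizations these shares were 2.64% to 3.10% and 0.141% to 0.226%. Differences of -1 or below were also more frequent in the shortest class, at 0.803%, than in the longest, at 0.451%. They were most frequent from 1500 to under 2000 bp, at 1.74%. The median difference was 0.16 in the shortest class (0.08 to 0.26 under the other normalizations). In the longest class it was -0.04, against 0.06 once arrays were centred on their medians, so its sign was not settled. Among probe sets whose mean log2 signal over all 8 arrays was 6 or more, the share was 8.77% of 308 in the shortest class and 0.0999% of 1001 in the longest. Relative to nNOS control, nNOS drought differed by a median of -0.15 in the shortest class and 0.03 in the longest, and WT drought differed from WT control by -0.15 and 0.015, though with each array centred both values of the longest class were below 0. The part of gene length in the members' differences was not tested.

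**Figure D5:**
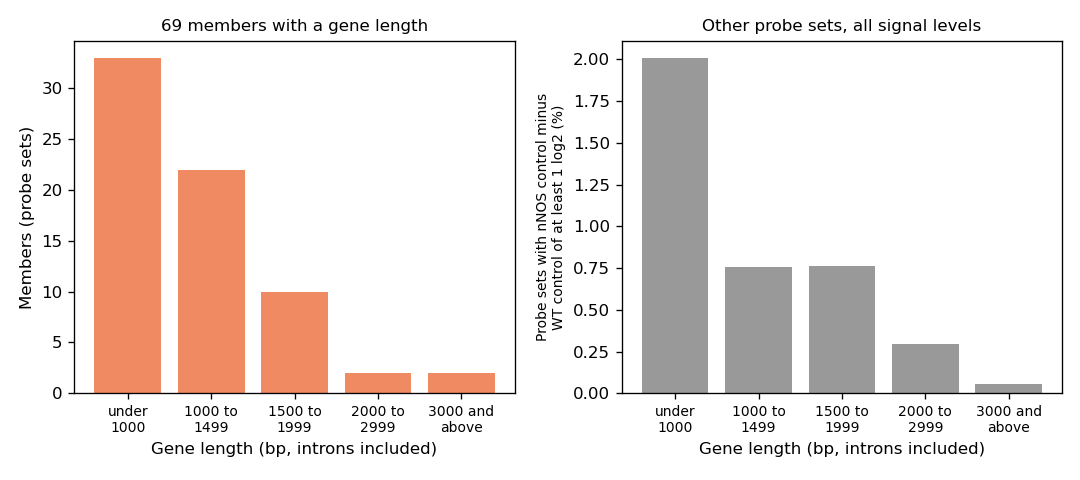
Left, number of the 69 members with a gene length in each length class (x axis, bp with introns), of which 33 are under 1000 bp. Right, percent of other probe sets in each class whose nNOS control minus WT control difference was at least 1, at 2.01% in the shortest and 0.0564% in the longest class.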

How the data were processed

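The values are the authors' normalized log2 signals per probe set as deposited, 1 array per sample, from biotin-labelled cRNA on ATH1 arrays that the authors scanned and processed with affylmGUI in R. The normalization and the summary of probes are not given in the sources used here, and no background measurement comes with them, so signal near the bottom of the range has no known error. The 2 arrays per group limit the precision.

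Members were found from group means of all 22746 probe sets that are not Affymetrix controls (64 of 22810). Members and gene lists were chosen with earlier results of these data known. The model of limma 3.58.1 (R 4.3.3) took all probe sets and 8 arrays, estimated a mean for each of the 4 groups, moderated the variances with eBayes and adjusted p by Benjamini-Hochberg over 22810 probe sets. On data simulated for nNOS drought against WT drought with 50 changed genes per size, it called 9 of 50 at a log2 change of 0.5 and 38 of 50 at 1. All other probe sets had no difference there. In the real comparison 3.68% of all probe sets were called higher and 7.00% lower, so the adjustment of p differs and these rates may not hold. Names came from the platform annotation through RefSeq for most members (50 of 1 gene) and from the study's annotation columns for 24. Genes named with values came from the grouped members, the 10 members of 1 gene with the largest nNOS control minus WT control difference and those nearest each limit. The study's fold changes and p-values were not used. Alternatives were other normalizations, limits, filters, fits and arrays left out. Python used pandas 2.3.3 and numpy 2.4.6.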

Additional observations from a re-analysis of the deposited data

Results flagged for a closer look

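Control probe sets outside the comparisons had more signal in well-watered nNOS plants than in WT. The mean in nNOS control minus that in WT control was 2.31 for the poly-A controls, 0.95 for the hybridization controls and 1.102 for the 25S ribosomal RNA control, on the log2 scale. In nNOS drought against WT drought, the poly-A and hybridization controls differed by 0.50 and 0.25. Their part in the members' signal was not tested. With 2 arrays in each group, single arrays could not be examined as outliers within a group.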

How the results depend on the processing

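The number of members moved with the limits and the arrays. Against 77, other normalizations gave 101 (quantile, 73 shared), 107 (each array centred on its median, 75 shared) and 128 (cyclic loess, 71 shared). Limits of 0.8 gave 189, limits of 1.2 gave 28, and the WT limit at -0.5 or -1 gave 58 or 86. Leaving out single arrays gave 44 to 156, the extremes being without nNOS control replicate 2 and without nNOS control replicate 1. The replicate 1 arrays alone gave 50 and the replicate 2 arrays alone 146, a choice made after seeing the data. Centring put the median of all probe sets at 0.11 in nNOS control minus WT control, against 0.01. The members' median above that of all probe sets, 1.205, was 1.25 after quantile normalization and 1.32 after cyclic loess. Of the members, 15 were called higher in nNOS drought than in WT drought (3.68% of all probe sets). This became 27 after centring each array on its median (10.3% of all) or with trend and robust eBayes (6.01%). It became 34 in a fit to the 4 arrays compared (8.46%) and 1 at an adjusted p of 0.01 (0.167%). Without both nNOS control arrays it was 30 (7.71%, added after seeing the data). With a mean signal of at least 6 in nNOS control, 27 of 65 members were called, beside 13.0% of 7992 probe sets. That filter used the group in which members are high by choice, so nothing is read from it. The 2 called lower became 1 under quantile normalization, centring, cyclic loess and an adjusted p of 0.01, and 0 to 2 leaving out single arrays. In WT drought against WT control, 1 member was called higher (5.97% of all). This became 3 with trend and robust eBayes (8.56%) and in the fit to 4 arrays (9.23%), and 2 without both nNOS control arrays (9.03%). With the same signal filter in nNOS control, 3 of 65 members were called, beside 18.9% of 7992 probe sets. The 19 called lower (4.92% of all) became 33 with trend and robust eBayes (6.82%) and 36 in the fit to 4 arrays (9.02%). They became 5 at an adjusted p of 0.01 (1.23%) and 35 without both nNOS control arrays (8.62%). With the signal filter in nNOS control, 32 of 65 members were called, beside 13.2% of 7992 probe sets. Each of these counts of called members also moved when single arrays were left out. A lone array left in a group was assumed to vary like the other groups. The cause of these shifts was not tested. With the replicate number as a block, 19 and 2 members were higher and lower in nNOS drought than in WT drought, and 1 and 21 in WT drought than in WT control. Same-numbered arrays deviated together with correlations of -0.12 to 0.12, and nothing states that the numbers pair them. The median gene length, used in place of the planned protein length, was 1040 bp, or 982 bp with platform-named probe sets alone. Protein length and promoter motifs were not run, since no sequences were used here. Signal over background is not known for these arrays, which limits what can be said of the dimmest members.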
